A study of Rattus norvegicus with 9 samples.

Results

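Mef2a, Mef2c and Mef2d, genes of the MEF2 family of transcription factors, were followed in the thalamus of young rats fed solid or powdered food. The 3 genes were represented by 8 of the 31042 rat probe sets on the array, 4 for Mef2a, 2 for Mef2c and 2 for Mef2d, and every probe set that the platform annotation assigns to one of these symbols alone was kept. The genes were chosen from the diet comparison itself, because the highest-mean probe sets of Mef2a and Mef2c were lower on chow. For this reason the differences between diets are given for all 8 probe sets as a description, with no p-value.

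MEF2 proteins carry a MADS box, bind A/T-rich DNA and are named for their part in muscle gene expression. In neurons they respond to calcium. Calcineurin dephosphorylates them, p38 and ERK5 kinases raise their activity, and class IIa histone deacetylases hold their target genes silent. In cultured rat and mouse neurons MEF2 activity limits the number of excitatory synapses, partly through targets such as Arc and Nr4a1.

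The samples were thalamus from male Wistar rats that entered the experiment at 3 weeks of age, with an age of 5 weeks given for each sample. All rats first ate powdered feed for 2 days. The chow group (4 arrays) then received a solid diet and the powder group (5 arrays) stayed on powdered feed, each for 8 days. No genetic change or other agent is named for either group, and the labels do not say which of the 10 rats gave which array, so the spread between arrays may be partly technical. The comparison addressed what chewing solid food after weaning does to the thalamus.

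The deposited values are log2 expression, 1 per probe set and array. Array medians were 7.3907 to 7.3964 on chow and 7.3978 to 7.4019 on powder, so every chow median lay below every powder median. On 84.4% of rat probe sets the 9 arrays differed by less than 0.01 log2 units in all, and these are called compressed here, because a difference on them has almost no size. The mean over the uncompressed probe sets was 8.73 to 8.74 on the chow arrays and 8.78 to 8.81 on the powder arrays. Chow 1 stood apart from the other arrays. Its mean level of 7 thalamic relay neuron markers, among them the glutamate transporter gene Slc17a6 and the transcription factor gene Tcf7l2, was 9.73, against 10.1 to 10.3 on the other chow arrays and 10.2 to 10.3 on powder. Its mean level of 4 striatal neuron markers was 8.26, against 7.50 to 7.55 on the other chow arrays and 7.42 to 7.56 on powder. The MEF2 differences, gaps and within-diet correlations are therefore also given without chow 1. In tissue RNA, fewer cells of a type and less RNA per cell cannot be told apart.

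The promoter window of Mef2a holds a match to the consensus that MEF2 proteins bind, and it is shown for that reason. A match describes the letters and is not evidence of binding. RefSeq promoter windows (assembly GRCr8, 250 bases before to 50 after the start of the gene) were listed for Mef2a and Mef2d. The MEF2 consensus has 10 bases, a pyrimidine, TA, 4 bases that are A or T, TA and a purine, and reads the same way on both strands. The 250 bases upstream of Mef2a lie at chr1:130392163-130392412 on the minus strand and are printed 5′ to 3′, with the consensus in capitals.
Mef2a: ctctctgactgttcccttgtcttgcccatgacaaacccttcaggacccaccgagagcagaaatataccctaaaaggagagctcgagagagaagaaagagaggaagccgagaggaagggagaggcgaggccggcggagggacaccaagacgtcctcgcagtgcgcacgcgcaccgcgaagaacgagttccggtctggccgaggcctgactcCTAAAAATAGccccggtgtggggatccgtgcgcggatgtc

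The match lies from 40 to 31 bases before the start of Mef2a. The Mef2d window holds 0 matches, which says only that these letters are not in that window. Over the whole reference, 1100 of 33469 windows (3.29%) held the consensus. Of 66 genes listed for their known roles around MEF2, 48 had a window and 1 of these held a match. It was Hdac5, a class IIa deacetylase that represses MEF2, and its match is shown with 10 bases on each side (chr10:87688087-87688116, minus strand, 52 to 43 bases before the start).
Hdac5: gggtctgagcCTATTTTTAGctcggggtcg

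Mef2a, expressed in many neurons as well as in muscle, gave values that differed between its probe sets. On its highest-mean probe set, 1383093_at, the log2 values were 9.94, 10.17, 10.26 and 10.06 on chow 1 to 4, against 10.40, 10.46, 10.38, 10.38 and 10.37 on powder 1 to 5. All 4 chow arrays lay below all 5 powder arrays, and chow 1 was the lowest. The means were 10.11 ± 0.139 on chow and 10.40 ± 0.0355 on powder (SD, n = 4 and 5), a log2 difference of -0.29 ± 0.062 (SE from limma), or 0.82-fold. Without chow 1 the difference was -0.23 ± 0.046.

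The other 3 Mef2a probe sets did not repeat this separation. On 1378360_at the values were 9.43, 9.88, 9.89 and 9.59 on chow 1 to 4, against 9.51, 9.37, 9.39, 9.35 and 9.50 on powder 1 to 5. Here chow 2, chow 3 and chow 4 lay above every powder array and chow 1 lay among them. The log2 difference was 0.27 ± 0.103 with all arrays and 0.36 ± 0.083 without chow 1, opposite in sign to the highest-mean probe set and of similar size.

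The remaining Mef2a probe sets overlapped between the diets. On 1392472_at the values were 9.76, 9.96, 10.04 and 9.88 on chow and 9.98, 10.07, 9.88, 9.94 and 10.06 on powder, a difference of -0.07 ± 0.065, or -0.02 ± 0.056 without chow 1. On 1393290_at they were 8.68, 8.82, 8.92 and 8.79 on chow and 8.79, 8.77, 8.72, 8.82 and 8.79 on powder, a difference of 0.02 ± 0.044, or 0.06 ± 0.034 without chow 1. Without chow 3 this last difference was -0.02. Averaged over its 4 probe sets, Mef2a differed between the diets by -0.018 log2 units.

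Mef2c, the family member whose loss of 1 copy causes a neurodevelopmental disorder in people, showed the same kind of disagreement. On its highest-mean probe set, 1372332_at, the values were 9.44, 9.63, 9.73 and 9.52 on chow 1 to 4, against 9.86, 9.97, 9.84, 9.77 and 9.82 on powder 1 to 5. Every chow array was below every powder array, with chow 3 only just below powder 4. The means were 9.58 ± 0.125 on chow and 9.85 ± 0.0729 on powder (SD, n = 4 and 5), a difference of -0.27 ± 0.064, or 0.83-fold, and -0.23 ± 0.060 without chow 1.

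The second Mef2c probe set, 1373410_at, read 8.79, 8.86, 8.83 and 8.52 on chow and 8.75, 8.71, 8.60, 8.55 and 8.68 on powder. Chow 4 was the lowest of all 9 arrays and the other 3 chow arrays were the highest. The difference was 0.09 ± 0.077, or 0.08 ± 0.089 without chow 1. Without chow 4 it was 0.17. Averaged over both probe sets, Mef2c differed by -0.089 log2 units.

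Mef2d, which supports the survival of cultured rat cerebellar granule neurons, was measured only on compressed probe sets. Its 9 values spanned 0.00027 log2 units on 1398427_at, where every array read 7.88, and 0.000735 on 1369851_at, where every array read 7.82. The differences were -9.65e-05 ± 5.66e-05 and 0.000414 ± 9.91e-05. On 1369851_at all 4 chow arrays lay above all 5 powder arrays, but by amounts too small to be read as a change in level.

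**Figure D1:**
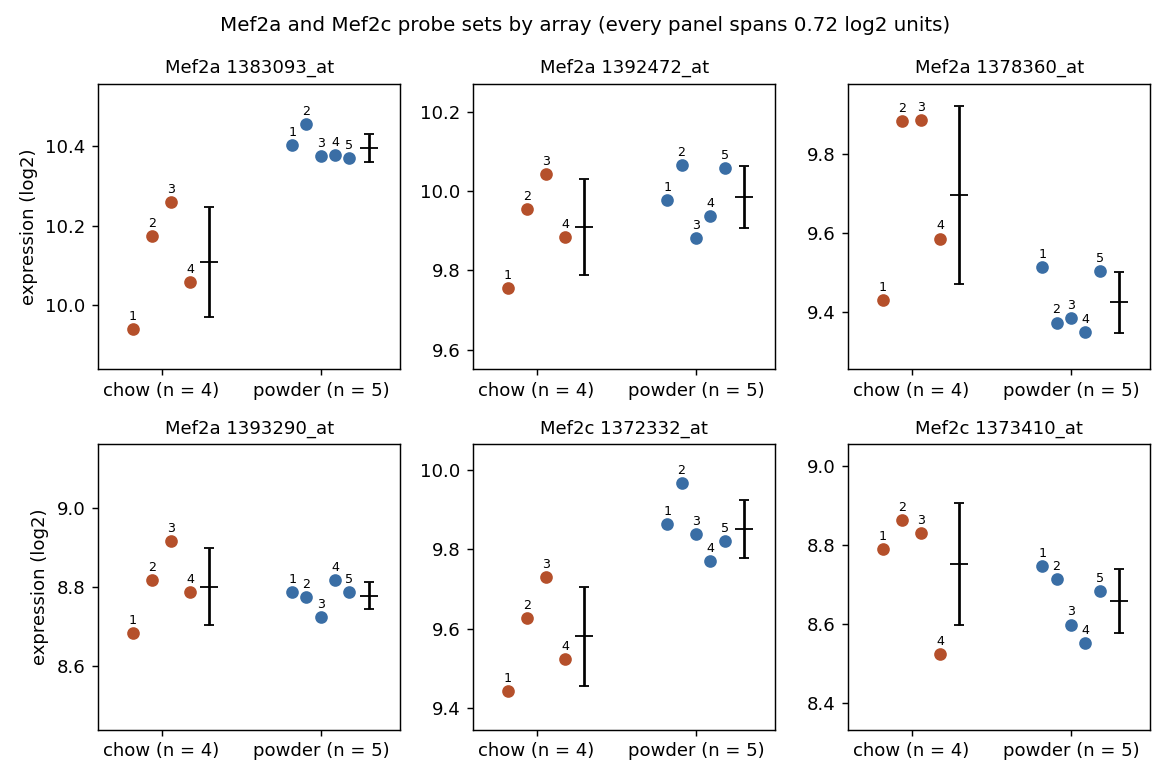
Log2 expression of the 6 uncompressed Mef2a and Mef2c probe sets, with 1 point per array numbered as in the labels, chow (n = 4) left and powder (n = 5) right, and bars for the mean ± SD. On 1383093_at and 1372332_at all chow arrays lie below all powder arrays, while on 1378360_at 3 of the 4 chow arrays lie above them.

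**Figure D2:**
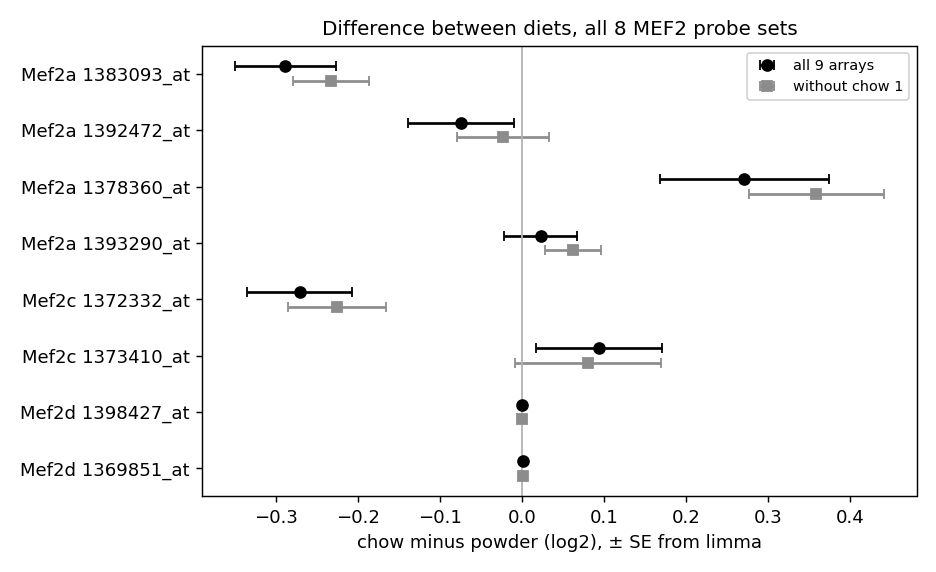
Chow minus powder in log2 units for all 8 MEF2 probe sets, with the SE from limma, over all 9 arrays (circles) and without chow 1 (squares). The values run from -0.29 to 0.27 with all arrays, and both Mef2d probe sets lie at 0 on this scale.

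By limma's adjusted p under 0.05 over all probe sets, 1 of the 8 probe sets was called higher on chow and 2 lower. Over the whole array 17.9% of probe sets were called higher and 16.7% lower. Among those spanning at least 0.01 the shares were 16.1% higher and 38.8% lower, against 0 and 2 of the 6 uncompressed Mef2a and Mef2c probe sets. Chow lay wholly above powder for 1 of the 8 and wholly below for 2, against 15.1% and 14.8% of all probe sets. Since this comparison chose the genes, these counts are given only beside their background. The 6 uncompressed differences had the same sign after quantile normalization and after subtraction of array medians.

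The gap between probe sets of the same gene also differed between the diets. For Mef2c, 1372332_at minus 1373410_at was 0.65, 0.76, 0.90 and 1.00 on chow 1 to 4, against 1.12, 1.25, 1.24, 1.22 and 1.14 on powder 1 to 5. For Mef2a, 1383093_at minus 1378360_at was 0.51, 0.29, 0.38 and 0.47 on chow, against 0.89, 1.08, 0.99, 1.03 and 0.87 on powder. The size of a gap has no meaning of its own, since probe sets differ in brightness, but its change between arrays shows that the 2 probe sets moved unequally. The mean gap was smaller on chow by 0.36 for Mef2c (0.83 ± 0.151 on chow and 1.19 ± 0.0619 on powder) and by 0.56 for Mef2a (0.41 ± 0.0979 on chow and 0.97 ± 0.0909 on powder; SD, n = 4 and 5 for both).

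All 4 such gaps, including 1383093_at minus 1392472_at and minus 1393290_at, were smaller on every chow array than on every powder array. The genes were chosen because these brightest probe sets were lower on chow, so a smaller gap partly restates that choice, and 3 of the 4 gaps share 1383093_at. Without chow 1 the mean differences of the gaps were -0.31 for Mef2c and -0.21, -0.59 and -0.30 for Mef2a against 1392472_at, 1378360_at and 1393290_at, compared with -0.36, -0.21, -0.56 and -0.31 over all arrays. Chow 1 lay within the range of the other chow arrays for 1 of these gaps, was the largest chow value for 1 and the smallest for 2. Disagreement of this kind was common on the array. Of 440 genes with at least 2 uncompressed probe sets, 210 (47.7%) had differences of both signs, and in 157 (35.7%) the brightest was lower on chow while the next was higher, against 35 with the opposite arrangement.

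The brightest probe set's difference minus the mean of the others was -0.362 for Mef2a and -0.365 for Mef2c, against a median of -0.14 over the 440 genes. Of the 440, 18.9% were at or below the value of Mef2a and 18.2% at or below that of Mef2c. In 321 of the 440 the brightest lay below the mean of the others. The 2 genes were chosen for a lower brightest probe set, so a low value here was favoured by that choice. The control probe sets for the ends of the beta-actin transcript also differed between diets. The 5′ minus 3′ value, a measure of how far labelling reached along the transcript, was -1.52 ± 0.0611 on chow and -1.65 ± 0.0602 on powder (SD, n = 4 and 5, two-sided exact permutation p = 0.0238, where the smallest possible is 0.00794). The GAPDH control for the 3′ end read 12.38 on every array, varying as little as the compressed probe sets. The GAPDH 5′ control overlapped between diets, at 11.77 to 12.02 on chow and 11.72 to 11.88 on powder. The control for the middle of GAPDH did not overlap, at 12.41 to 12.49 on chow and 12.33 to 12.40 on powder. Nor did the beta-actin 3′ control, at 12.56 to 12.63 on chow and 12.41 to 12.50 on powder. The part of labelling reach in the MEF2 differences was not tested.

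**Figure D3:**
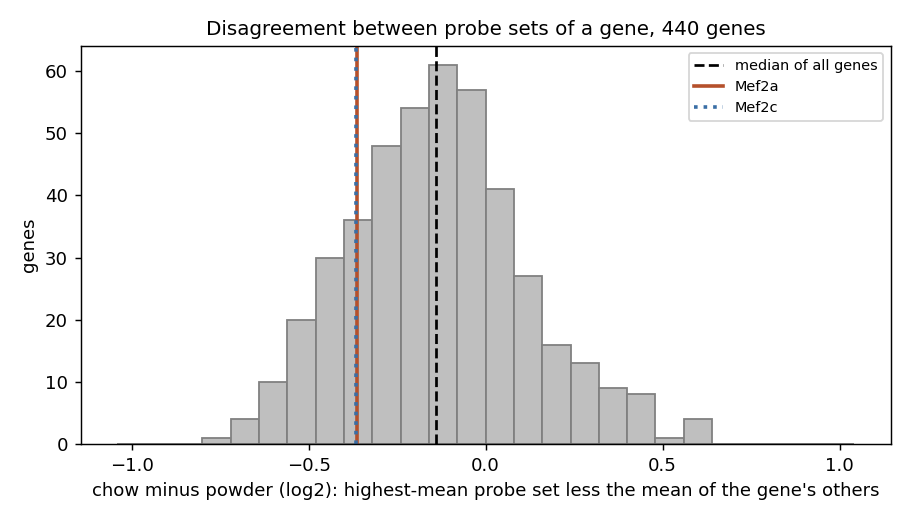
Number of genes by the chow minus powder difference (log2) of the brightest probe set less the mean of the gene's other uncompressed probe sets, for 440 genes. The median (dashed) is -0.14, and Mef2a (solid) and Mef2c (dotted) lie together at about -0.36.

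Among the chow arrays most MEF2 probe sets moved together. On chow, 5 of the 6 uncompressed probe sets ranked the arrays in the same order, with chow 1 lowest, then chow 4, chow 2 and chow 3. This order was read from 1383093_at itself, and 4 of the 5 are probe sets of Mef2a. Of all 4849 uncompressed probe sets, 13.7% had this order. The exception was 1373410_at of Mef2c, on which chow 4 was lowest and chow 2 highest. Deviations from the diet means on 1383093_at of Mef2a were -0.17, 0.07, 0.15 and -0.05 on chow 1 to 4. On 1372332_at of Mef2c they were -0.14, 0.05, 0.15 and -0.06.

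The powder arrays showed no common order. On powder 1 to 5 the deviations were 0.0059, 0.06, -0.021, -0.020 and -0.025 on 1383093_at. On 1378360_at of the same gene they were 0.088, -0.051, -0.039, -0.076 and 0.078, so powder 2 was the highest array on the first and below the mean on the second. On 1372332_at of Mef2c they were 0.012, 0.115, -0.013, -0.082 and -0.032.

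Over the deviations of all 9 arrays from their diet means, 1383093_at and 1372332_at, from different genes, had a Pearson r of 0.94, and 0.92 over the 8 arrays without chow 1. The 4 Mef2a probe sets, whose diet differences ran in opposite directions, correlated with each other at 0.78 to 0.87 over 9 arrays and at 0.51 to 0.71 without chow 1. For the 2 Mef2c probe sets r was 0.50 over 9 arrays and 0.74 without chow 1. These values share the same arrays, and the chow arrays hold the largest deviations.

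Marker genes of several cell types moved with the MEF2 probe sets, some in the same and some in the opposite direction, and relay neuron markers were not alone in this. Over the 6 uncompressed probe sets and 9 arrays, r with the mean level of the list was 0.20 to 0.94 for relay neurons, 0.42 to 0.94 for cortical excitatory neurons and 0.30 to 0.78 for endothelial cells. It was -0.87 to -0.45 for reticular nucleus and interneurons, -0.80 to 0.12 for striatal neurons, -0.89 to -0.25 for microglia, -0.91 to -0.07 for astrocytes, -0.26 to 0.25 for oligodendrocytes and -0.73 to -0.38 for muscle. The lowest relay value, 0.20, was that of 1373410_at of Mef2c. Only 1 of the 3 measured cortical markers (Slc17a7) and 1 of the 5 muscle markers (Myh1) were uncompressed. The r values of these 2 lists therefore follow a single gene each. In the endothelial list Cldn5 and Tek were compressed, and Pecam1 spanned 0.052 log2 units against 0.81 for Flt1. The endothelial r values therefore rest mainly on Flt1.

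Without chow 1, over 8 arrays, the ranges were 0.68 to 0.93 for relay neurons, 0.34 to 0.92 for cortical neurons and -0.073 to 0.59 for endothelial cells. They were -0.80 to -0.23 for reticular nucleus and interneurons, -0.54 to -0.063 for striatal neurons, -0.75 to -0.13 for microglia, -0.80 to -0.24 for astrocytes, -0.73 to -0.10 for oligodendrocytes and -0.82 to -0.33 for muscle. All 7 relay markers were lower on chow 1 than on the other chow arrays. Between the diets, 0 of 7 relay markers and 0 of 4 striatal markers passed limma's adjusted p under 0.05. At limma's unadjusted p under 0.05 the counts were 1 (lower on chow) and 0. Of all genes, 21.2% were higher and 25.6% lower at that limit. The part of tissue makeup in the MEF2 values was not tested.

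**Figure D4:**
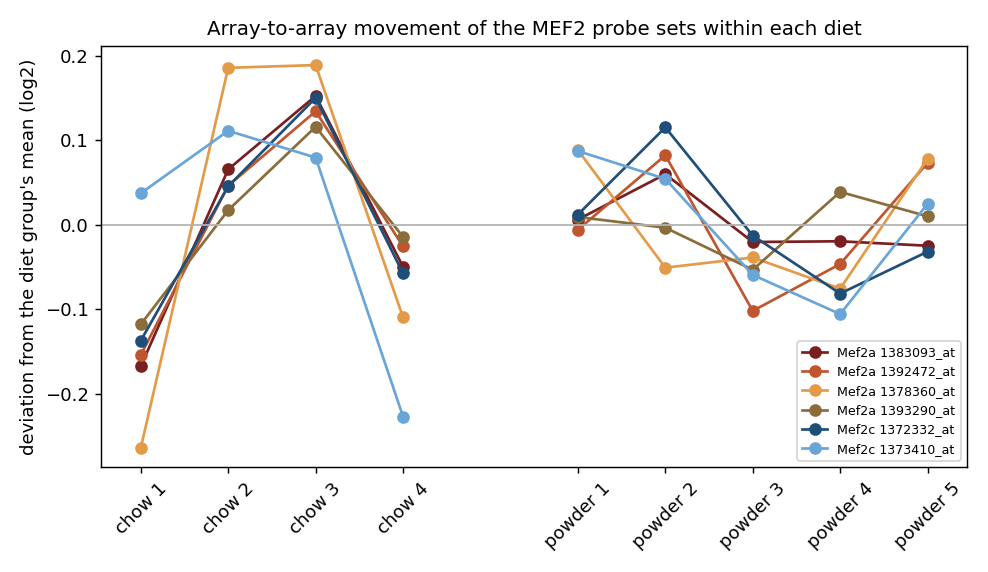
Deviation of each array from its diet group's mean (log2) for the 6 uncompressed Mef2a and Mef2c probe sets, chow arrays left and powder arrays right, with lines joining the points of 1 probe set for ease of reading. Chow 1 is the lowest chow array and chow 3 the highest for all but 1373410_at of Mef2c.

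Endothelial cells also express MEF2 factors. The mean of 4 endothelial markers was 8.26 to 8.40 on chow and 8.39 to 8.47 on powder, and 2 of the 4 passed the test as lower on chow, against 18.8% of all genes. At an unadjusted p under 0.05 in limma 4 of the 4 were lower, against 25.6% of all genes. The 2 called were Flt1, a VEGF receptor, which was uncompressed (-0.41), and the compressed Tek. Of the other 2, Cldn5 was compressed and Pecam1 differed by -0.02, so the mean of the list rests mainly on Flt1. Among the other marker lists, 0 of 5 reticular nucleus and interneuron markers and 0 of 4 oligodendrocyte markers passed the test, with 1 and 0 at an unadjusted p under 0.05. In each of 4 lists a single marker was higher on chow and 0 lower, among 3 of cortical excitatory neurons, 7 of microglia, 5 of astrocytes and 5 of muscle, and these markers (Tbr1, Itgam, Slc1a2 and Ckm) were all compressed. At an unadjusted p under 0.05 in limma the counts were 1 higher and 0 lower for cortical neurons and for microglia. They were 1 and 1 for astrocytes and 2 and 0 for muscle, against 21.2% higher and 25.6% lower of all genes. The part of these cells in the MEF2 values was not tested.

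The genes whose within-diet deviations were most like those of each probe set were found among 2412 uncompressed genes. For 1383093_at of Mef2a they were Inhbb, a subunit of activin and inhibin (r = 0.99), Gbe1, the glycogen branching enzyme (0.99), Kitlg, the ligand of the KIT receptor (0.98), and Arpp21, a cAMP-regulated phosphoprotein (0.98). For 1392472_at they were Mb21d2 (0.99), Zmat4 (0.96), Cplx1, which encodes a complexin of the release machinery (0.96), and Olfm1 (0.96), and for 1378360_at they were Lrrc7, a postsynaptic scaffold (0.97), Vipr2, a receptor for vasoactive intestinal peptide (0.96), Rab3ip (0.95) and LOC100909539 (0.95). For 1393290_at they were Rnf157 (0.98), Akap12, an anchor for protein kinase A (0.98), Nell1 (0.97) and Thy1, a neuronal surface protein (0.97).

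For 1372332_at of Mef2c the nearest genes were Cyth2, an exchange factor for ARF GTPases (0.98), Mal2 (0.96), Plekhd1 (0.96) and Hivep2 (0.96), and for 1373410_at they were Necab2, a calcium-binding protein (0.87), Coch (0.84), Dnajb14 (0.84) and Myo5a (0.84). No gene was named for more than 1 probe set. Without chow 1 the r values of these genes were 0.84 to 1.00. With 9 arrays high values are frequent: 7.21% of the genes reached an r of 0.9 with 1383093_at, 1.66 to 2.28% with the other Mef2a probe sets and 1372332_at, and 0 of 2412 with 1373410_at. The first component of within-diet variation held 47.5% of the variance of uncompressed probe sets and placed chow 1 at -0.76, against -0.24 to 0.39 for the other 8 arrays. Its r with the 6 probe sets was 0.78 to 0.90, apart from 0.32 for 1373410_at. With the component recomputed without chow 1, r was 0.18 for 1393290_at, 0.83 for 1373410_at and 0.53 to 0.69 for the others.

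Genes known to act with MEF2 were tested by limma over 14217 genes, each by its highest-mean probe set. Of 66 listed genes 59 were measured, and 3 (5.08%) were higher and 12 (20.3%) lower on chow, against 14.2% and 18.8% of all genes. Their median difference was -9.79e-05, against -7.19e-06 over all genes. The split depended on scaling: quantile normalization gave 40 higher and 5 lower, and subtracting the array medians gave 46 and 6. Without chow 4, 2 were higher and 7 lower. Only 16 of the 59 were uncompressed. Of these, 2 were higher and 4 lower, with a median difference of -0.094, against 218 higher and 971 lower of 2414 uncompressed genes with a median of -0.12.

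The 1 other family member, Mef2b, which in adults is best known from B cells, had a single compressed probe set and was higher on chow by 0.000233 ± 6.72e-05 (adjusted p = 0.0349). Its call was lost without any 1 of 7 arrays, all 4 chow arrays and powder 1, 2 and 5 (adjusted p from 0.0534 to 0.0789).

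Among the co-repressors of MEF2, 0 of 6 measured genes were higher and 3 lower on chow, against 14.2% and 18.8% of all genes. Of these 3, Hdac3 (-0.000248) and Cabin1 (-0.0002) were compressed and only Ncor1 was uncompressed. Ncor1, the scaffold of the complex through which class IIa deacetylases act, was at 9.11 ± 0.0494 on chow and 9.19 ± 0.0228 on powder (SD, n = 4 and 5), a difference of -0.08 ± 0.024 (adjusted p = 0.033). It did not pass when any of 7 arrays was left out, chow 1, 2 and 4 and powder 1 to 4 (adjusted p from 0.05002 to 0.0791). A second uncompressed Ncor1 probe set had a difference of 0.28 ± 0.169 and was not called. The class IIa deacetylases themselves were compressed and not called, Hdac4 at 0.00017 ± 9.16e-05 (adjusted p = 0.182) and Hdac5, whose promoter match is shown above, at -0.000121 ± 4.61e-05 (adjusted p = 0.0801). Of the co-activators and partner factors, 0 of 11 were higher and 2 lower, against the same shares of all genes. All 11 had compressed highest-mean probe sets. A second probe set of Crebbp, a histone acetyltransferase that acts with MEF2, was uncompressed and read 8.55 ± 0.0846 on chow and 8.79 ± 0.0598 on powder (SD, n = 4 and 5), -0.24 ± 0.047 (limma adjusted p = 0.0103 over all probe sets), with every chow array below every powder array. At an unadjusted p under 0.05 in limma the counts were 0 higher and 4 lower for co-repressors and 2 and 4 for co-activators and partners. Of all genes, 21.2% were higher and 25.6% lower at that limit.

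The kinases, phosphatases and adaptors that carry calcium and stress signals to MEF2 held 4 of the 6 called uncompressed genes. This list also held 10 of the 16 uncompressed pathway genes. In it 2 of 24 (8.33%) were higher and 6 (25%) lower on chow, against 14.2% and 18.8% of all genes. Gsk3b, a kinase that phosphorylates MEF2D, rose to 8.76 ± 0.178 on chow, against 8.29 ± 0.119 on powder, a difference of 0.47 ± 0.096 (adjusted p = 0.012), and 0.45 without chow 1 (adjusted p = 0.0321). Camk2g, a subunit of CaM kinase II, rose by 0.19 ± 0.050 (9.68 ± 0.0825 on chow and 9.49 ± 0.073 on powder, adjusted p = 0.0265), a call lost without chow 4 (0.052) or powder 3 (0.0501), but not without chow 1 (0.21, adjusted p = 0.0415). Mapk11, the p38 beta kinase, was lower on chow, at 7.40 ± 0.0819 against 7.63 ± 0.042 on powder (-0.23 ± 0.041, adjusted p = 0.00751), with a difference of -0.20 without chow 1 (adjusted p = 0.0133).

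Camk2b, another CaM kinase II subunit, was lower on its highest-mean probe set (10.86 ± 0.0284 on chow and 10.99 ± 0.0377 on powder, -0.13 ± 0.022, adjusted p = 0.00733), with a difference of -0.12 without chow 1 (adjusted p = 0.0203). Its second probe set differed in the other direction (0.31 ± 0.062, adjusted p = 0.0114 over all probe sets), an arrangement also seen in sign for Mef2c. Ppp3ca, the catalytic subunit of calcineurin, was at 11.54 ± 0.137 on chow and 11.69 ± 0.0449 on powder, a difference of -0.15 ± 0.062 that was not called (adjusted p = 0.108). Without chow 1 it was -0.21 and called (adjusted p = 0.0146). Its second uncompressed probe set was at 0.08 ± 0.080. Camk4, a nuclear CaM kinase that frees MEF2 from deacetylases, was compressed at 0.00033 and not called (adjusted p = 0.147).

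Of 14 measured target genes known from neurons or vessels, 0 were higher and 1 lower on chow, at the adjusted and at the unadjusted p in limma alike. The shares of all genes were 14.2% higher and 18.8% lower at the adjusted p, and 21.2% and 25.6% at the unadjusted p. Only 4 of the 14 were uncompressed on their highest-mean probe set. Klf4, a zinc-finger factor controlled by ERK5 and MEF2 in endothelium, was at 7.38 ± 0.166 on chow and 7.69 ± 0.0898 on powder (-0.31 ± 0.083, adjusted p = 0.0281). The call was lost without any 1 of chow 1, chow 4, powder 2, powder 4 and powder 5 (adjusted p from 0.0509 to 0.0633). Of the neuronal targets, Arc (adjusted p = 0.9), Nr4a1 (0.954), Bdnf (0.345), Homer1 (0.415) and Ube3a (0.405) all had compressed highest-mean probe sets, with absolute differences of at most 0.000153, and none of these 5 was called. The uncompressed Kcna1, a potassium channel gene, differed by -0.16 ± 0.111 (limma adjusted p = 0.301) and Pcdh10, a protocadherin that takes part in synapse loss, by -0.08 ± 0.072 (0.394), neither called. A second probe set of Rgs2, a regulator of G protein signalling, was uncompressed and higher on every chow array than on every powder array, by 0.29 ± 0.090 (adjusted p = 0.0423 over all probe sets). Second probe sets of Jun (0.12 ± 0.065) and Pcdh17 (-0.07 ± 0.091) were uncompressed and not called.

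Of 3 measured genes for the turnover and splicing of MEF2, 0 were called in either direction by limma, and 0 had an unadjusted p under 0.05. The shares of all genes were 14.2% higher and 18.8% lower at the adjusted p, and 21.2% and 25.6% at the unadjusted p. Across all listed genes, 13 uncompressed probe sets were not the highest-mean ones, and by limma over all probe sets 3 were higher on chow (Camk2b, Rgs2 and Ppp3r1, the regulatory subunit of calcineurin, at 0.42 ± 0.10) and 2 lower (Crebbp and Rbfox1, a splicing factor, at -0.23 ± 0.070), against 16.1% and 38.8% of uncompressed probe sets.

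**Figure D5:**
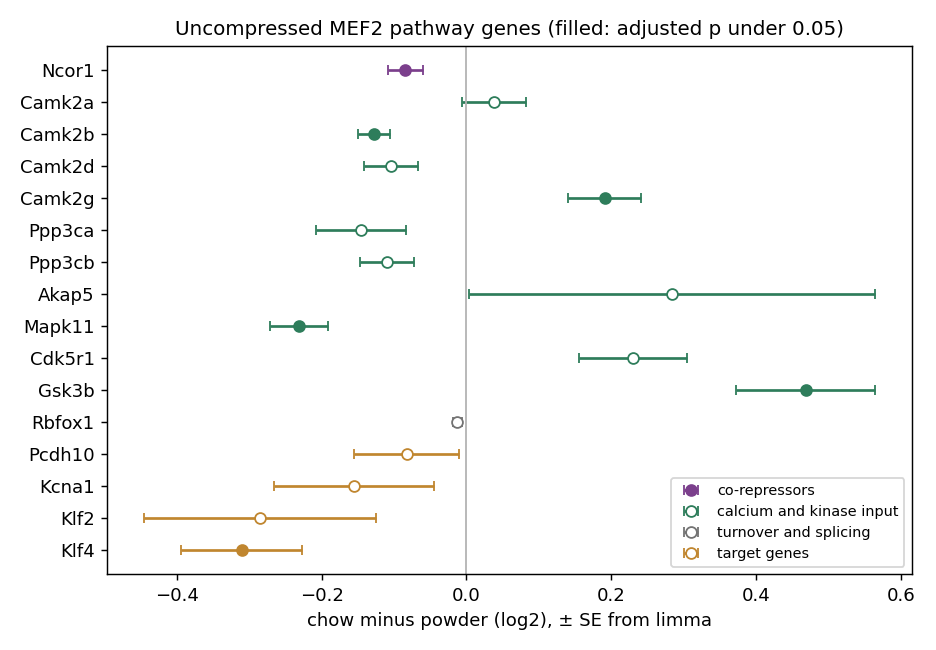
Chow minus powder (log2) with the SE from limma for the 16 uncompressed genes of the MEF2 pathway lists, coloured by role, filled where the adjusted p was under 0.05. Gsk3b and Camk2g lie to the right among the filled points, and Ncor1, Camk2b, Mapk11 and Klf4 to the left.

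Genes whose promoter window holds the MEF2 consensus were also counted. Of 201 such genes measured on the array, 38 (18.9%) were higher and 33 (16.4%) lower on chow, against 13.8% and 19.4% of the 11733 measured genes with a window. Among the 33 uncompressed ones, 3 were higher and 15 lower (45.5%), with a median difference of -0.16, against 41.5% lower and a median of -0.13 over 2006 uncompressed genes with a window. Mef2a is itself among the 15.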

How the data were processed

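Biotin-labelled cRNA from thalamic total RNA was hybridised to single-colour arrays, per the labels. The authors deposited 1 log2 value per probe set and array. No source used here states how these were background-corrected, summarised, normalized or centred, and the log2 scale was read from the range of the values, 5.37 to 14.0. Scanner output was not used here.

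Groups and replicate numbers came from the sample titles. After leaving out 57 control probe sets, chow minus powder was fitted in R 4.3.3 with limma 3.58.1 (lmFit, eBayes, no covariates), over 31042 rat probe sets and over 14217 genes, each represented by the brightest of its single-symbol probe sets. Of the probe sets 20826 had 1 symbol, 436 several and 9780 none. Calls are Benjamini-Hochberg adjusted p under 0.05. The steps were tested on simulated data.

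The members, the 6 pathway lists and the 9 marker lists were chosen with earlier results of these data known. Named were all member probe sets, 11 pathway genes in any case (Hdac9 was not measured by a single-symbol probe set) and, of each pathway list, up to 6 called uncompressed genes of smallest p. The 4 genes most like each uncompressed member probe set, by r within diets, were also named. Flt1, Tek, the other markers, Kcna1, Pcdh10 and the second probe sets were named after their values were seen. The count over genes with a promoter match, the comparison of probe sets within a gene, and the within-diet correlations and gaps without chow 1 were added after the data were seen. The alternatives were 2 scalings, each array left out, the replicate number as a block, another variance model, array weights, 2 filters and a gene's median over its probe sets. The number of arrays limits the precision.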

Additional observations from a re-analysis of the deposited data

Results flagged for a closer look

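Of 48 groups of values examined for a single distant array (8 MEF2 probe sets and the named pathway genes, by diet), 2 were marked, where chance marks about 1 in 20. Camk2g read 9.36 on powder 2, below the other powder arrays at 9.51 to 9.54. Homer1 read 9.054 on powder 1, below 9.0542 to 9.0543 on the others, on a compressed probe set. None of the MEF2 probe sets had such an array in either diet.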

How the results depend on the processing

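Under the 16 alternatives, none of the 96 recomputed Mef2a and Mef2c differences moved by more than the spread between arrays, and 1 changed sign (1393290_at of Mef2a, -0.0159 without chow 3). Some of these could not move. The other variance model and the 2 filters do not alter a difference of means, and returned the main values. The replicate block returned the same differences as leaving out powder 5. The Mef2d differences became 0.0141 and 0.0136 after quantile normalization and 0.00648 and 0.00699 with array medians subtracted, larger than their 9 values span, so on compressed probe sets the scaling sets the value. Quantile normalization gave 15610 probe sets higher and 1854 lower, 8329 and 1000 genes, and 40 and 5 pathway genes, and subtraction of medians gave 27206 and 2141, 12112 and 1133, and 46 and 6. In these 2 settings Hdac5 (0.0305 and 0.00645), Arc (0.00732 and 0.00656) and Ube3a (0.0282 and 0.00652) reversed. Leaving out the compressed probe sets, so that fewer were tested, gave 865 and 2019 probe sets, 245 and 1051 genes, and 3 and 6 pathway genes. In the main fit the uncompressed ones alone gave 782 and 1880, 218 and 971, and 2 and 4. With a gene's median over its probe sets, 9 pathway genes were higher, and Ncor1 (0.0446) and Camk2b (0.0891) reversed, because their probe sets disagree. With 1 array left out in turn, calls ranged from 3661 (without powder 1) to 4879 probe sets higher and 3906 to 4843 lower, 1352 to 1778 genes higher and 2015 to 2640 lower, and 2 to 3 pathway genes higher and 7 to 12 lower. Same-numbered chow and powder arrays had within-diet correlations of -0.31, 0.19, -0.34 and -0.16. These few values cannot decide whether the numbers pair the samples, which the sample titles do not state. With the replicate block on 8 arrays, limma called 1 probe set higher and 18 lower, 0 and 11 genes, and 0 and 0 pathway genes (3 and 11 at an unadjusted p under 0.05, and 2180 genes higher and 2756 lower). For the other shifts the cause was not tested. No detection calls were used, so signal over background is unknown.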
